A study of Mus musculus with 12 samples.

Results

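The genes described here are 9 factors of blood clotting and clot removal, F5, F10, F13a1, F3, Pros1, Thbd, Tfpi, Serpine2 and Plau, picked by symbol from the table of 49671 mouse genes. All 9 were found, and all 9 were among the 15399 genes that passed the filter on low counts. RNA was sequenced from what the labels give as pooled embryos of embryonic day 9.5. There were 4 genotypes with 3 libraries each: the LYL1 SCL DKO (double KO), the LYL1 KO (Lyl1 KO), the SCL KO (Scl KO) and WT (wild type). Scl is encoded by Tal1. Lyl1 and Scl are related basic helix-loop-helix transcription factors that bind DNA with E proteins and act with GATA factors in blood cells. The titles call every library a biological replicate (Bio Rep). The labels give no strain, allele, Cre driver or litter for any genotype, nor how many embryos made a pool. The p-values therefore cover only how far these libraries vary. Double KO and Lyl1 KO each held libraries of both sexes (values below), so their libraries did not all come from the same material. For Scl KO and wild type, whether the replicates came from different pools was not tested.

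Clotting starts when tissue factor exposed to blood binds factor VII and activates factor X, which with its cofactor factor V turns prothrombin into thrombin. Thrombin makes fibrin, and factor XIII cross-links it. Antithrombin, the tissue factor pathway inhibitor, protein S and thrombomodulin hold the cascade back, and urokinase starts fibrin removal by activating plasminogen. Platelets and the megakaryocytes that make them carry several of these proteins in their alpha granules, and mouse megakaryocytes make factor V themselves.

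The libraries held 24324685 to 29212443 counts each. Transcripts of Tal1 averaged 92.8 ± 13 CPM (counts scaled to library size by the trimmed mean of M values, TMM; SD, n = 3) in double KO, 579 ± 39.0 in Lyl1 KO, 109 ± 13.9 in Scl KO and 572 ± 65.5 in wild type. Lyl1 averaged 84.1 ± 25.8 CPM in double KO, 87.7 ± 2.46 in Lyl1 KO, 175 ± 50 in Scl KO and 181 ± 28.5 in wild type, and its lower level in Lyl1 KO than in wild type did not pass the test (log2 fold change -1.04 ± 0.24 SE, adjusted p = 0.286). The profile did not match the label of whole embryo: none of 10 heart, neural and tail bud genes reached 10 CPM in any library, and Myh6, Nkx2-5 and Sox1 were at 0 in all 12. All 14 megakaryocyte and platelet markers reached 10 CPM, with summed levels of 16597 to 33362 CPM in double KO, 60609.8 to 69775 in Lyl1 KO, 42256 to 57945 in Scl KO and 55420.3 to 63321 in wild type. Y-linked transcripts summed to 189 to 265 CPM in double KO replicates 1 and 2 and Lyl1 KO replicate 3, and to at most 0.214 CPM in the other libraries. Xist, read from the inactive X chromosome, had 0.402 to 1.79 CPM in the former and 356 to 740 CPM in the latter. Each library thus read as a single sex, though the labels give pools. All Scl KO and wild-type libraries were among those with high Xist, so sex was not balanced over the genotypes. On the second principal component, with 12.7% of the variance, replicates 1 and 2 of double KO, Scl KO and wild type lay apart from their replicates 3 and from all Lyl1 KO libraries. In bulk RNA, fewer cells of a type and less RNA per cell cannot be told apart.

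F5 fell to 13.2% of the wild-type level in double KO. F10 also fell there, and of the 4 anticoagulant genes Thbd, Serpine2 and Tfpi rose while Pros1 fell. In double KO against wild type, 3 of the 9 genes were higher and 3 lower at an adjusted p under 0.05 (edgeR quasi-likelihood test, Benjamini-Hochberg adjusted over all genes), where 34.5% of all tested genes passed, 16.4% higher and 18.1% lower. In Scl KO against wild type, 2 genes were higher (Thbd, Serpine2) and 2 lower (F10, F3), against 5.03% of all genes past the threshold, 2.29% higher and 2.73% lower. With the replicate number as a block in that comparison, F5 passed as well and 1226 of all genes passed, against 774 without the block. In Lyl1 KO against wild type, 0 of the 9 passed by edgeR, DESeq2 or limma-voom and 0 had an unadjusted p under 0.05, where 0.0714% of all genes passed, 0.039% higher and 0.0325% lower. These comparisons share the wild-type libraries.

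Double KO was also set against each single knockout. Against Scl KO, 2 of the 9 genes were higher (Thbd, Tfpi) and 2 lower (F5, Pros1), with 19.1% of all genes past the threshold, 8.37% higher and 10.8% lower. Against Lyl1 KO, 2 were higher (Thbd, Serpine2) and 3 lower (F5, Pros1, F10), with 35.2% of all genes past it, 17.4% higher and 17.9% lower. The interaction, which is the effect of losing Lyl1 without Scl minus its effect with Scl present, passed for F3 above 0 and for F5 and Pros1 below 0, with 9.38% of all genes past the threshold, 3.51% above 0 and 5.86% below. The median log2 fold change of the 9 genes was -0.66 in double KO against wild type, beside 0.04 over all tested genes, and -0.25 in Scl KO against wild type, beside 0.00 over all tested genes. These medians are the values of single genes that did not pass, F3 (adjusted p = 0.494) and Plau (adjusted p = 0.774) in that order. They do not describe a shared fall of the 9 genes.

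**Figure D1:**
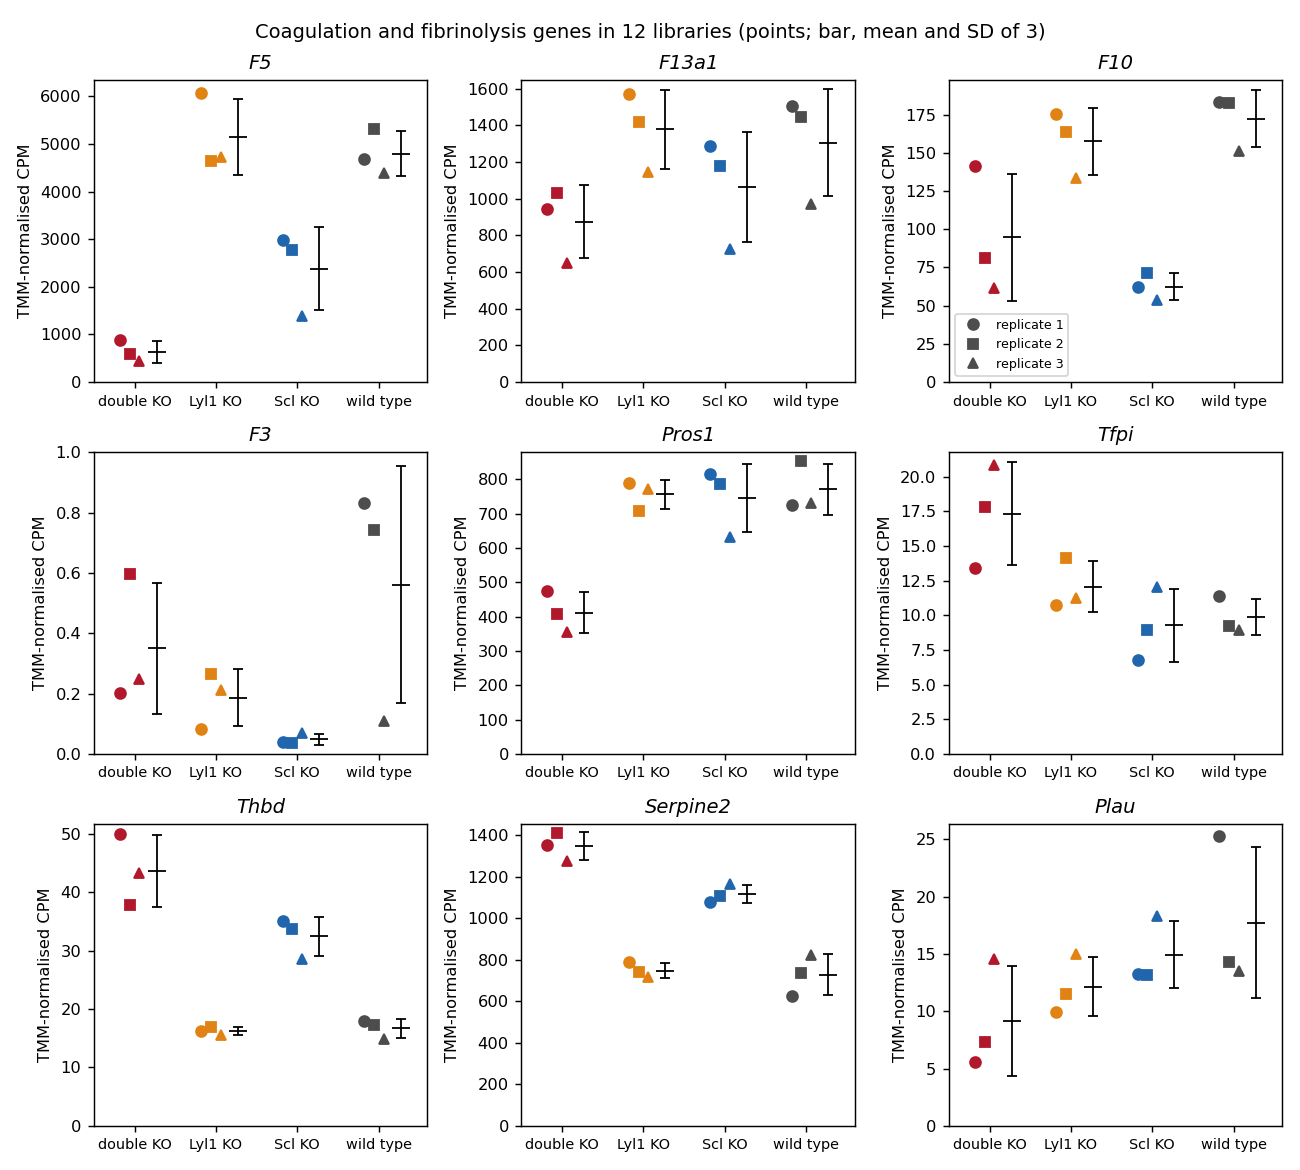
TMM-normalised CPM of the 9 genes in each of the 12 libraries, by genotype, with the mean and SD of 3 libraries as a bar beside the points. F5 lies between 436 and 879 CPM in double KO and at 4383 CPM or more in wild type, while Thbd lies at 37.8 CPM or more in double KO and at 18 CPM or less in wild type.

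**Figure D2:**
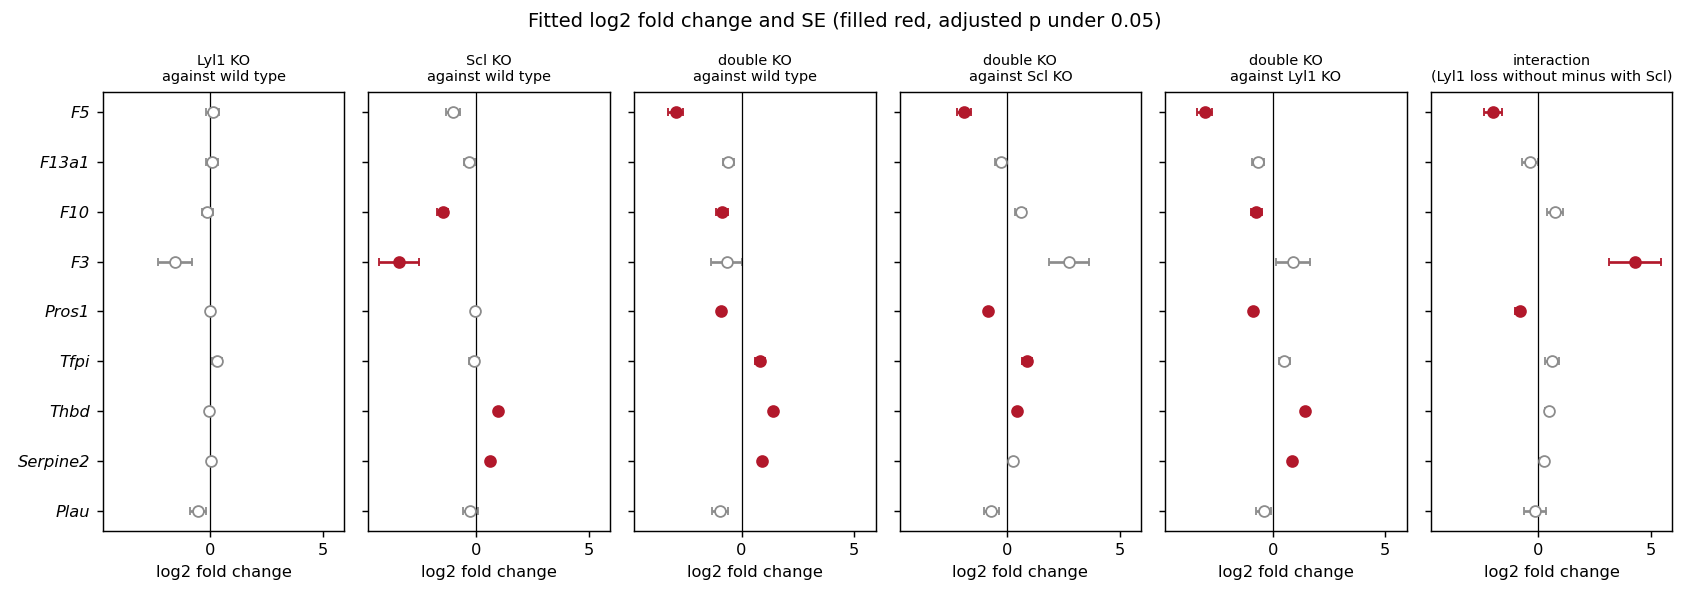
Fitted log2 fold change (x axis, first-named genotype over the second) and SE of each gene in the 5 comparisons and in the interaction, with filled red points at an adjusted p under 0.05. No gene is filled in Lyl1 KO against wild type, and F5 is filled in all panels that involve double KO and in the interaction.

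Promoter windows of 4 genes are shown because they cover the main patterns: F5 and Pros1 fell in double KO beyond Scl KO, F10 fell in Scl KO, and Serpine2 rose without Scl. Each window of 300 bases runs from 250 bases before to 50 after the annotated RefSeq transcript start on GRCm38.p6, written in the direction of transcription. They lie at chr1:164151585-164151884 on the plus strand for F5, chr16:62854057-62854356 on the plus strand for Pros1, chr8:13037058-13037357 on the plus strand for F10, and chr1:79858616-79858915 on the minus strand for Serpine2. The Serpine2 window lies within the counted gene span, which on the minus strand begins at 79861180, and not at the beginning of that span. Capitals mark AGATAA or TGATAA on either strand (the GATA motif) and CANNTG (the E-box), which did not overlap each other in these windows.
F5: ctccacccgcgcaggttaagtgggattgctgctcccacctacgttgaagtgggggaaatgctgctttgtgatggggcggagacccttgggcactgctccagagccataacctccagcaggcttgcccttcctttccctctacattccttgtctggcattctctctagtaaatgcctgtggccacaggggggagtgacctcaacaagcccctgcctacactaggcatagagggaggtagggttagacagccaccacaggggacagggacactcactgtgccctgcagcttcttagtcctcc
Pros1: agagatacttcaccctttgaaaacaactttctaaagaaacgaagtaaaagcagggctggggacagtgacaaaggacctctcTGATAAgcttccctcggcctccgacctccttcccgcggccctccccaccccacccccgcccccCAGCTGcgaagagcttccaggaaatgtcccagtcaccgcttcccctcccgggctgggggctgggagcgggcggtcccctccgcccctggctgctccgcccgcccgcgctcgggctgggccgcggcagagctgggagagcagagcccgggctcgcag
F10: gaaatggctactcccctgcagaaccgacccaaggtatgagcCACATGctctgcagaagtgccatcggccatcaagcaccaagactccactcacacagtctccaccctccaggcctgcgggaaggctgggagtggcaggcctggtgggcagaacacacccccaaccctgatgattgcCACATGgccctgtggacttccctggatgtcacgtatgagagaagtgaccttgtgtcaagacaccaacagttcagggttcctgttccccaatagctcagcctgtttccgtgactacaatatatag
Serpine2: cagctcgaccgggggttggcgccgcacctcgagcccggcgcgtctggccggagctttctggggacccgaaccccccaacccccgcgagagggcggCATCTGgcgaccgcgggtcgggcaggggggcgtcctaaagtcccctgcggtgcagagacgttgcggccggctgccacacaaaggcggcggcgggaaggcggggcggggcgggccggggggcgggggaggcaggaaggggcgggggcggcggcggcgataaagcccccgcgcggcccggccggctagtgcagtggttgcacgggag
The F5 window held neither motif. The Pros1 window held 1 GATA motif, TGATAA, and 1 E-box, CAGCTG. The F10 window held 2 E-boxes, each CACATG, and no GATA motif, and the Serpine2 window held 1 E-box, CATCTG, and no GATA motif. Of the 9 windows listed for 7 of the 9 genes, 3 held the GATA motif and 7 an E-box. Over all 32851 RefSeq windows of this length, 18.6% held the GATA motif, 72.3% an E-box and 14.4% both. These matches are descriptions of letters and not of bound sites.

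F5 encodes factor V, the cofactor of factor Xa in the complex that makes thrombin. The gene (ENSMUSG00000026579) spans chr1:164151838-164220277 on the plus strand of GRCm38. Its level was 879, 581 and 436 CPM in double KO, 6064, 4636 and 4719 CPM in Lyl1 KO, 2982, 2771 and 1393 CPM in Scl KO, and 4692, 5319 and 4383 CPM in wild type. The double KO libraries were all below every Scl KO library, the Scl KO libraries were all below every wild-type library, and Lyl1 KO and wild type overlapped. Double KO had 632 ± 226 CPM and wild type 4798 ± 477 CPM (SD, n = 3 each), a log2 fold change of -2.92 ± 0.32 (SE, adjusted p = 3.34e-05). Against Scl KO the log2 fold change of double KO was -1.91 ± 0.30 (adjusted p = 0.00125), and against Lyl1 KO it was -3.02 ± 0.32 (adjusted p = 2.46e-05).

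Scl loss with Lyl1 present gave F5 2382 ± 863 CPM, against 4798 ± 477 CPM in wild type. This log2 fold change of -1.01 ± 0.30 did not pass (adjusted p = 0.0786). It did pass under some settings, with an adjusted p of 0.0104 with the replicate number as a block, 0.00821 by DESeq2, 0.0382 without double KO replicate 1 and 0.0422 without double KO replicate 3, and a range of 0.00462 to 0.218 over all alternatives. Lyl1 loss with Scl present gave 5139 ± 801 CPM, a log2 fold change of 0.10 ± 0.29 against wild type (adjusted p = 0.960). The interaction for F5 was -2.01 ± 0.42 on the log2 scale (adjusted p = 0.0133), so the Lyl1 effect differed with Scl status, and its adjusted p stayed at or below 0.0395 in the 21 alternatives. The summed level of the 14 megakaryocyte and platelet markers was, like F5, lower in double KO (ranges above), and the part of these markers in the result was not tested. The interaction and the 3 double KO comparisons of F5 passed also with scaling factors computed without those markers. That setting leaves the 14 genes out of the scaling only, so it is no test of their part in the F5 result.

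Transcription at the F5 start was also read on the opposite strand. Gm16548, a long noncoding RNA gene at chr1:164148591-164152217, overlaps 380 bases of the F5 span, and it was chosen for description after its values were seen. It averaged 0.80 ± 0.29 CPM in double KO, 9.23 ± 1.33 in Lyl1 KO, 4.17 ± 0.769 in Scl KO and 7.88 ± 1.69 in wild type (SD, n = 3). The order of the 4 genotypes was that of F5. Its log2 fold change was -3.29 ± 0.30 in double KO against wild type (adjusted p = 9.81e-06), and its interaction was -2.61 ± 0.39 (adjusted p = 0.00250). Counting was strand-specific, Gm16548 had between 0.107% and 0.236% of the F5 count in each library, and whether its reads are separate from F5 transcription was not tested. Another gene, Gm16588, overlaps the F5 span on the same strand, and its effect on the F5 count was not tested.

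F10 encodes factor X, the protease that cleaves prothrombin, which in the body is made mainly by the liver. The gene (ENSMUSG00000031444) lies at chr8:13037308-13056676 on the plus strand. It was read at 141, 81.0 and 61.8 CPM in double KO, 176, 164 and 134 CPM in Lyl1 KO, 62.3, 71.5 and 53.5 CPM in Scl KO, and 184, 183 and 151 CPM in wild type. All Scl KO libraries lay below all wild-type libraries, and double KO overlapped Scl KO at its lower end. Scl KO averaged 62.4 ± 8.96 CPM and wild type 173 ± 18.4 CPM (SD, n = 3 each), a log2 fold change of -1.47 ± 0.25 (adjusted p = 0.00513) that passed in all 22 alternatives.

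In double KO, F10 averaged 94.7 ± 41.5 CPM, a log2 fold change of -0.87 ± 0.25 against wild type (adjusted p = 0.0172). This call was lost without double KO replicate 2 (adjusted p = 0.0627), without wild-type replicate 2 (0.0532) and with only the libraries compared in the fit (0.0536), in a range of 0.000215 to 0.0627 over the alternatives. Against Lyl1 KO the log2 fold change was -0.74 ± 0.25 (adjusted p = 0.0350), which 6 of 22 alternatives lost. Among these were double KO replicate 2 (0.115) or 3 (0.0942) left out and Lyl1 KO replicate 1 (0.106) or 2 (0.0793) left out, and the range was 0.000407 to 0.115. The difference between double KO and Scl KO did not pass (log2 fold change 0.60 ± 0.25, adjusted p = 0.112), nor did the interaction (0.73 ± 0.35, adjusted p = 0.219). It did pass between double KO and Scl KO without double KO replicate 3 (adjusted p = 0.0241; range 0.0241 to 0.455). Of 8 liver and yolk sac endoderm markers, 1, Afp, reached 10 CPM, the other 7 stayed under 1 CPM, and Ttr was at 0 in all libraries. Their sum was 1.51 to 2.95 CPM in double KO, 8.51 to 11.9 in Lyl1 KO, 4.6 to 6.46 in Scl KO and 7.91 to 10.1 in wild type, lower in both genotypes without Scl, and its part in the F10 values was not tested.

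F13a1 encodes the catalytic A subunit of factor XIII, the transglutaminase that cross-links fibrin. It lies at chr13:36867178-37050244 on the minus strand (ENSMUSG00000039109). Its level was 944, 1031 and 649 CPM in double KO, 1572, 1420.0 and 1146 CPM in Lyl1 KO, 1285, 1180.3 and 723 CPM in Scl KO, and 1506, 1444 and 969 CPM in wild type. Replicate 3 was the lowest in all 4 genotypes, and each pair of genotypes overlapped except double KO and Lyl1 KO. Double KO had 875 ± 200.1 CPM and wild type 1306 ± 294 CPM, a log2 fold change of -0.58 ± 0.25 that did not pass (adjusted p = 0.0935).

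No other comparison of F13a1 passed either, the nearest being double KO against Lyl1 KO at -0.66 ± 0.25 (adjusted p = 0.0606). Both comparisons passed by DESeq2 (adjusted p = 0.0476 against wild type and 0.0219 against Lyl1 KO), in ranges of 0.00185 to 0.236 and of 4.14e-05 to 0.173 over the alternatives. With the replicate number as a block in edgeR both passed too (adjusted p = 0.00202 against wild type and 0.000711 against Lyl1 KO). Not all same-numbered libraries of these genotypes varied together, and the labels do not state a pairing. Leaving out Scl KO replicate 3 or wild-type replicate 3 also made both pass (0.0492 and 0.0336 against wild type, 0.0294 and 0.0403 against Lyl1 KO). Macrophages also make this subunit, and 12 macrophage and monocyte markers summed to 3449 to 3987 CPM in double KO and 4223 to 7227 CPM in wild type. Their part in the F13a1 values was not tested.

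F3 encodes tissue factor, the cell-surface protein that starts clotting, and it was barely detected. The gene (ENSMUSG00000028128) lies at chr3:121723537-121735048 on the plus strand. Its raw counts were 6, 18 and 8 in double KO, 2, 7 and 5 in Lyl1 KO, 1, 1 and 2 in Scl KO, and 20, 17 and 3 in wild type. Every Scl KO library was at or under 3 counts, and wild-type replicate 3 stood near them rather than with the other wild-type libraries. Summed over libraries and scaled for depth, Scl KO had 0.0902 times the wild-type count (95% exact interval 0.0234 to 0.250, from 4 and 40 counts), and double KO had 7.17 times the Scl KO count (2.54 to 27.9, from 32 and 4 counts). These intervals cover counting error only.

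The fitted log2 fold change of F3 in Scl KO against wild type was -3.40 ± 0.89 (adjusted p = 0.0487). It was lost in 13 of 20 alternatives, among them limma-voom (0.199), each of the 3 libraries of Scl KO left out (0.117 to 0.166), wild-type replicate 1 (0.161), wild-type replicate 2 (0.154), double KO replicate 1 (0.0510) or 2 (0.0522), and each Lyl1 KO library (0.0589 to 0.0729), with a range of 0.0113 to 0.199. The interaction of 4.29 ± 1.17 (adjusted p = 0.0413) was lost in 12 of 20 alternatives, up to 0.141 with limma-voom (range 0.0162 to 0.141). These included leaving out double KO replicate 2 (0.108), wild-type replicate 1 (0.0937) or 2 (0.0858), or any library of Lyl1 KO (0.0681 to 0.103) or Scl KO (0.0554 to 0.109). A term for Y-linked transcripts in the fit lost both the Scl KO against wild type call (adjusted p = 0.0605) and the interaction. Double KO against Scl KO did not pass (2.74 ± 0.90, adjusted p = 0.0521). With all 12 libraries it did pass by DESeq2 (adjusted p = 0.0415) and with a term for the side of the second principal component (0.0341). It also passed without double KO replicate 1 (0.0479) or wild-type replicate 3 (0.0222), in a range of 0.0222 to 0.186.

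Pros1 encodes protein S, a cofactor of activated protein C and of the tissue factor pathway inhibitor. It spans chr16:62854307-62929346 on the plus strand (ENSMUSG00000022912). It was read at 474, 408 and 354 CPM in double KO, 789, 708 and 773 CPM in Lyl1 KO, 816, 786 and 632 CPM in Scl KO, and 725, 855 and 732 CPM in wild type. Double KO lay below all other libraries, and the other 3 genotypes overlapped. Pros1 averaged 412 ± 59.8 CPM in double KO and 771 ± 73.2 CPM in wild type (SD, n = 3 each), a log2 fold change of -0.90 ± 0.14 (adjusted p = 0.000448).

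Set against the single knockouts, double KO was lower in Pros1 by a log2 fold change of -0.85 ± 0.14 from Scl KO (adjusted p = 0.00158) and of -0.88 ± 0.14 from Lyl1 KO (adjusted p = 0.000509), and these 3 calls held in all 22 alternatives. Scl KO differed from wild type by -0.05 ± 0.14 (adjusted p = 0.906) and Lyl1 KO from wild type by -0.03 ± 0.14 (adjusted p = 0.983). The Pros1 interaction was -0.83 ± 0.20 (adjusted p = 0.0240). It was lost on leaving out double KO replicate 2 (adjusted p = 0.0530), Lyl1 KO replicate 1 (0.0697) or 3 (0.0596), Scl KO replicate 1 (0.0640) or 2 (0.0677), or wild-type replicate 1 (0.0528), in a range of 0.000662 to 0.0697 over the alternatives.

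Thbd encodes thrombomodulin, the receptor that turns thrombin toward activating protein C. The gene (ENSMUSG00000074743) lies at chr2:148404466-148408188 on the minus strand. Its level was 50, 37.8 and 43.2 CPM in double KO, 16.3, 16.9 and 15.6 CPM in Lyl1 KO, 35.0, 33.7 and 28.7 CPM in Scl KO, and 18, 17.3 and 14.8 CPM in wild type. Double KO was above every Scl KO library and both were above every Lyl1 KO and wild-type library. Thbd was 2.61-fold higher in double KO than in wild type (log2 fold change 1.39 ± 0.13, adjusted p = 1.29e-05) and 1.94-fold higher in Scl KO than in wild type (0.96 ± 0.13, adjusted p = 0.00128), and both calls held in all 22 alternatives.

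In double KO, Thbd averaged 43.6 ± 6.12 CPM, against 32.5 ± 3.36 CPM in Scl KO (SD, n = 3 each). This log2 fold change of 0.43 ± 0.13 (adjusted p = 0.0355) was lost in 9 of 22 alternatives. Among these were double KO replicate 1 left out (adjusted p = 0.109), double KO replicate 3 left out (0.0681), Lyl1 KO replicate 2 left out (0.0529) and each Scl KO library left out (0.0648 to 0.0939), and the range over the alternatives was 0.0111 to 0.109. A term for Y-linked transcripts in the fit lost this Thbd call too (adjusted p = 0.0937). The interaction did not pass (0.47 ± 0.18, adjusted p = 0.136). Thrombomodulin is best known from endothelium, and the 10 endothelial markers summed to 374 to 586 CPM in double KO, 1245 to 1489 CPM in Lyl1 KO, 561 to 821 CPM in Scl KO and 1089 to 1331 CPM in wild type. Pecam1 made up most of the wild-type sum (219 ± 48 CPM in double KO and 734 ± 94.6 CPM in wild type), while Tie1 had 132 ± 24.9 CPM in double KO and 93.5 ± 16.7 CPM in wild type. Their part in the Thbd values was not tested.

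Serpine2 encodes protease nexin-1, a serpin that blocks thrombin and urokinase. It spans chr1:79794197-79861180 on the minus strand (ENSMUSG00000026249). It was read at 1354, 1411 and 1276 CPM in double KO, 789, 739.7 and 715 CPM in Lyl1 KO, 1078, 1105 and 1163 CPM in Scl KO, and 624, 738 and 822 CPM in wild type. As for Thbd, double KO was highest and Scl KO next, with no overlap between double KO and Scl KO or between Scl KO and the other 2 genotypes. Double KO had 1347 ± 67.9 CPM and wild type 728 ± 99.1 CPM (SD, n = 3 each), a log2 fold change of 0.89 ± 0.12 (adjusted p = 0.000163).

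Scl KO had 1115 ± 43.2 CPM of Serpine2, a log2 fold change of 0.62 ± 0.12 against wild type (adjusted p = 0.0112). That call was lost without wild-type replicate 1 (adjusted p = 0.0519) or wild-type replicate 2 (0.0588), in a range of 1.55e-06 to 0.0588. Double KO against Lyl1 KO gave 0.85 ± 0.12 (adjusted p = 0.000204), and double KO against Scl KO gave 0.27 ± 0.12, which did not pass (adjusted p = 0.137). The Serpine2 interaction was 0.23 ± 0.17 (adjusted p = 0.440).

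Tfpi encodes the inhibitor of the tissue factor and factor VIIa complex and of factor Xa. The gene (ENSMUSG00000027082) lies at chr2:84432855-84476775 on the minus strand. Its level was 13.4, 17.8 and 20.8 CPM in double KO, 10.8, 14.2 and 11.3 CPM in Lyl1 KO, 6.81, 8.95 and 12.1 CPM in Scl KO, and 11.4, 9.24 and 8.97 CPM in wild type. Double KO lay above Scl KO and wild type and overlapped Lyl1 KO. Tfpi averaged 17.3 ± 3.73 CPM in double KO and 9.86 ± 1.31 CPM in wild type (SD, n = 3 each), a log2 fold change of 0.81 ± 0.22 (adjusted p = 0.0152).

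This Tfpi call was lost without double KO replicate 3 (adjusted p = 0.0576) or wild-type replicate 2 (0.0529), in a range of 0.00357 to 0.0576. Against Scl KO, double KO was higher by 0.90 ± 0.22 (adjusted p = 0.0159). That call was lost with only the libraries compared in the fit (adjusted p = 0.0611) and without double KO replicate 2 (0.0507) or 3 (0.0580) or Scl KO replicate 1 (0.0799) or 2 (0.0632), in a range of 0.00171 to 0.0799. Double KO against Lyl1 KO did not pass (0.52 ± 0.22, adjusted p = 0.0901; 0.0422 without double KO replicate 1, range 0.0227 to 0.277), and the interaction was 0.61 ± 0.32 (adjusted p = 0.268).

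Plau encodes urokinase, which turns plasminogen into plasmin. It lies at chr14:20836662-20843388 on the plus strand (ENSMUSG00000021822). Its level was 5.56, 7.34 and 14.6 CPM in double KO, 9.92, 11.5 and 15 CPM in Lyl1 KO, 13.3, 13.2 and 18.3 CPM in Scl KO, and 25.3, 14.3 and 13.5 CPM in wild type. All 4 genotypes overlapped, with double KO replicate 3 and wild-type replicate 1 above their groups. In double KO against wild type the log2 fold change was -0.95 ± 0.35, just outside the threshold (adjusted p = 0.0510). It passed in 6 of 22 alternatives, in a range of 0.00398 to 0.238. With all 12 libraries it passed by DESeq2 (adjusted p = 0.0219) and limma-voom (0.0391). It also passed in edgeR with the replicate number as a block (0.0372) or a term for the side of the second principal component (0.0326). The other passes were without double KO replicate 3 (0.00398) and without wild-type replicate 3 (0.0424). No other comparison of Plau passed in the fit of all 12 libraries. Without double KO replicate 3, double KO was also lower than Scl KO (adjusted p = 0.0188, range 0.0188 to 0.428) and than Lyl1 KO (0.0365, range 0.0365 to 0.803).

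Per length, as TPM (counts divided by gene length and scaled to the same total in each library), the genes spanned more than 3 orders of magnitude within a library. In wild type the mean levels were 1999 TPM for F5, 1028 for F13a1, 584 for Pros1, 273 for Serpine2, 196 for F10, 23.4 for Plau, 13.9 for Thbd, 5.59 for Tfpi and 0.682 for F3. In double KO the order changed: F13a1 had 895 TPM, Serpine2 656, Pros1 404, F5 338, F10 137, Thbd 47.1, Plau 16.1, Tfpi 12.9 and F3 0.565. TPM does not use the TMM factors, which were 1.14 to 1.30 in double KO and 0.894 to 0.957 in wild type. Changes between genotypes therefore differ in size between TPM and CPM, and TPM serves here for the order within a genotype. F5 was the most abundant of the 9 in wild type, with 1867 to 2186 TPM against 781 to 1180.4 TPM for F13a1. In double KO, F5 at 249 to 441 TPM overlapped Pros1 at 368 to 432 TPM, and F13a1 at 702 to 1089 TPM overlapped Serpine2 at 609 to 706 TPM.

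**Figure D3:**
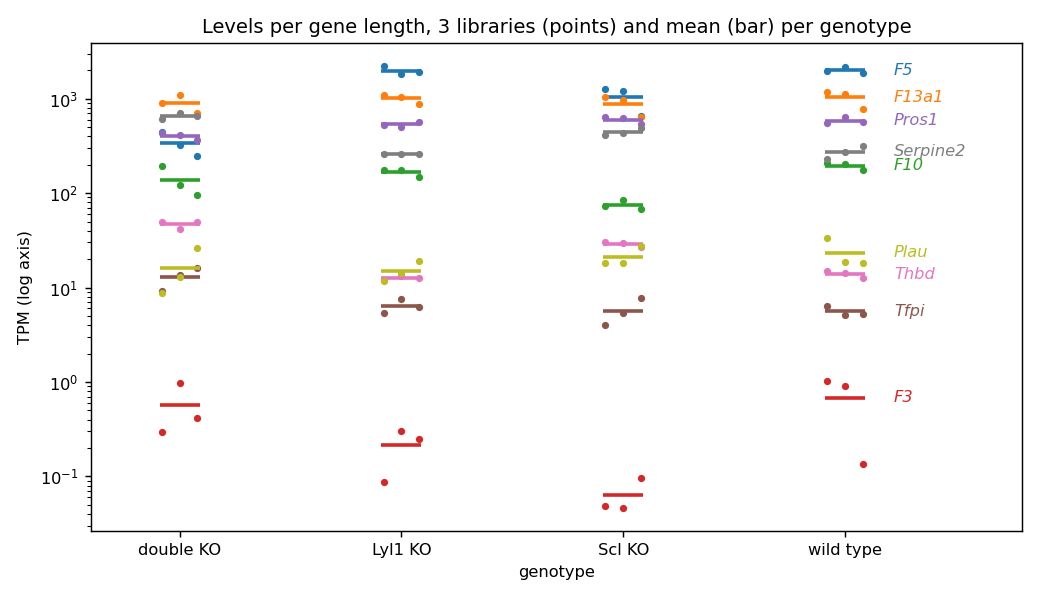
Levels of the 9 genes per length (TPM, log axis) in 3 libraries per genotype as points, with the mean as a bar. F5 is above all the others in Lyl1 KO and wild type, and it lies below F13a1, Serpine2 and Pros1 in the double KO means.

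Across the 12 libraries the genes fell into opposite movements, given here as Pearson r of log2 CPM over libraries that share genotypes, as a description. F5 and Pros1 moved together (r = 0.940), as did Thbd and Serpine2 (r = 0.923), while F5 ran against Serpine2 (r = -0.889) and Thbd (r = -0.861). The genes whose pattern was most like F5 were Prkce (r = 0.997) and Mast2 (r = 0.997), and those most like Pros1 were Dusp3 (r = 0.995) and Snap23 (r = 0.991). Thbd was most like Sipa1l1 (r = 0.979) and Abtb2 (r = 0.977), Serpine2 most like Tspan13 (r = 0.989) and Col4a5 (r = 0.986), and F10 most like Cxxc5 (r = 0.972) and Chsy3 (r = 0.935). For Tfpi the likest genes were Zmiz1 (r = 0.946) and Wdfy4 (r = 0.933), for F13a1 Irgm2 (r = 0.951) and Klf3 (r = 0.947), for Plau Oas1g (r = 0.927) and Itpr3 (r = 0.890), and for F3 F9 (r = 0.895) and Fgd2 (r = 0.864), where F3 and F9 were both near the counting limit.

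Of 34 further genes of clotting and fibrinolysis, 19 passed the filter on low counts. In double KO against wild type, 0 of these 19 were higher and 3 lower (Serpinb2, Serpinc1 and Anxa2), where 16.4% of all genes were higher and 18.1% lower. In Scl KO against wild type and in Lyl1 KO against wild type 0 were higher and 0 lower, with 5.03% and 0.0714% of all genes past the threshold in that order of comparisons. Double KO against Scl KO gave 0 higher and 3 lower (Serpinb2, Serpinc1 and Proz), beside 8.37% higher and 10.8% lower of all genes. Double KO against Lyl1 KO gave 0 higher and 2 lower (Serpinb2 and Serpinc1), beside 17.4% higher and 17.9% lower of all genes, and the interaction gave 0 above 0 and 1 below (Serpinb2), beside 3.51% above and 5.86% below of all genes. By role, the tested genes numbered 4 clotting factors, 4 anticoagulants, 6 of fibrinolysis and 5 of factor maturation and transport, and none of the 4 clotting factors or the 5 maturation genes passed in any comparison.

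Serpinb2, which encodes plasminogen activator inhibitor 2, was the clearest of these genes. It had 182, 166 and 228 CPM in double KO, 749, 658 and 697 CPM in Lyl1 KO, 766, 734 and 766 CPM in Scl KO, and 494, 567 and 664 CPM in wild type. Double KO lay far below all other libraries, and Scl KO lay above wild type. Its log2 fold change in double KO was -1.58 ± 0.14 against wild type (adjusted p = 1.00e-05) and -1.97 ± 0.15 against Scl KO (adjusted p = 1.04e-05), and the interaction was -2.26 ± 0.20 (adjusted p = 0.000135), all of which held in every alternative. Scl KO against wild type did not pass (0.39 ± 0.14, adjusted p = 0.154).

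Serpinc1, which encodes antithrombin, was low throughout, at 0.119 ± 0.0744 CPM in double KO and 0.921 ± 0.564 CPM in wild type (SD, n = 3 each), a log2 fold change of -2.90 ± 0.65 (adjusted p = 0.00470). Its call in double KO against Scl KO (-2.07 ± 0.65, adjusted p = 0.0455) was lost in 12 of 20 alternatives (range 0.0205 to 0.179), among them each library of double KO or Lyl1 KO, Scl KO replicates 1 and 2 and wild-type replicate 2 left out in turn. The call of Proz, the cofactor of a factor Xa inhibitor (-1.13 ± 0.35, adjusted p = 0.0420), was lost in 11 of 22 (range 0.0135 to 0.155), among them double KO replicates 1 and 3, each Lyl1 KO library, Scl KO replicates 1 and 2 and wild-type replicate 2 left out in turn. Anxa2, which binds plasminogen at the cell surface together with S100a10, had 69.7 ± 7.46 CPM in double KO and 112 ± 41.9 CPM in wild type. Its log2 fold change of -0.68 ± 0.22 (adjusted p = 0.0298) was lost in 8 of 22 alternatives (range 0.00183 to 0.168), among them replicates 1 and 2 of double KO and of wild type left out in turn. With a term for Y-linked transcripts in the fit, this Anxa2 call was lost (adjusted p = 0.168). The calls of Serpinc1 and Proz in double KO against Scl KO were lost too (0.110 and 0.0804).

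Of the liver-made genes, Fga, Fgb and Fgg, which encode fibrinogen, and F11 had 0 counts in all 12 libraries, and F2, which encodes prothrombin, had 91 counts in all; these 5 were named after their values were seen. The receptor of urokinase, Plaur, averaged 14.5 ± 6.14 CPM in double KO and 18.1 ± 5.76 CPM in wild type, and S100a10 averaged 242 ± 36.1 CPM in double KO and 278 ± 21.9 CPM in wild type. Plgrkt, a plasminogen receptor, averaged 52.2 ± 9.21 CPM in double KO and 58.8 ± 2.71 CPM in wild type (SD, n = 3 each), and Plaur, S100a10 and Plgrkt passed in no comparison. The genes Ggcx, Vkorc1 and Vkorc1l1, which serve the vitamin K-dependent carboxylation of factors such as factor X and protein S, and Lman1 and Mcfd2, which carry factor V through the secretory pathway, had 10 TPM or more in at least 1 genotype mean. F7, next to F10 on chromosome 8, was read at 13.5, 13.2 and 5.90 CPM in double KO and 26.9, 14.2 and 7.25 CPM in wild type and passed in no comparison.

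**Figure D4:**
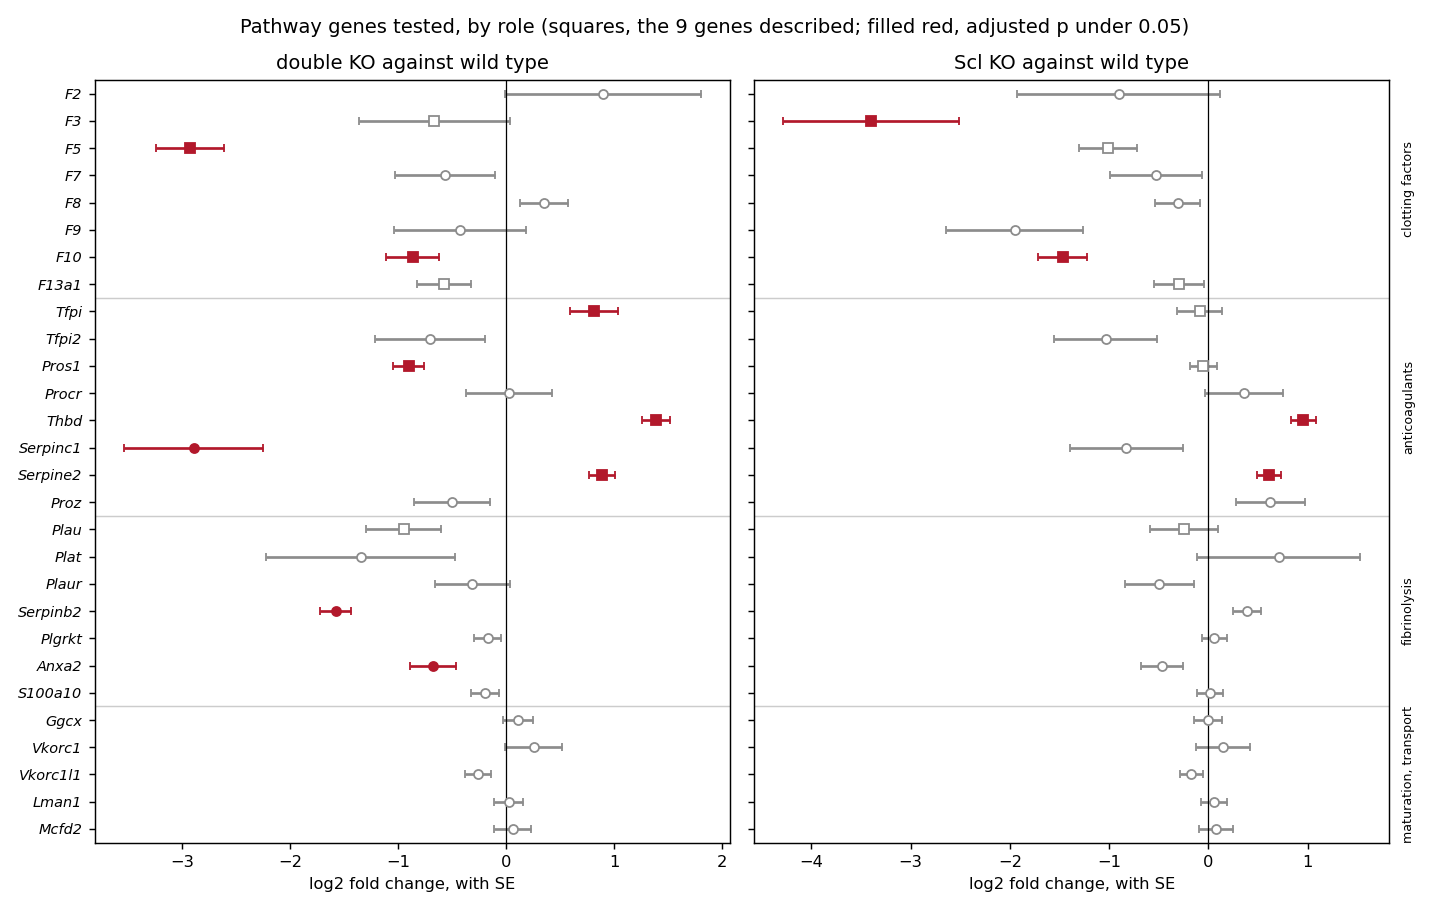
Fitted log2 fold change and SE (x axis) of the 28 tested genes of the pathway by role, in double KO against wild type on the left and Scl KO against wild type on the right, with squares for the 9 genes described and filled red symbols at an adjusted p under 0.05. On the left F5 and Serpinc1 lie near -2.9 and Thbd, Serpine2 and Tfpi lie above 0, and on the right F10, F3, Thbd and Serpine2 are filled.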

How the data were processed

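Messenger RNA libraries (TruSeq Stranded mRNA, after Trizol and RNeasy extraction, per the labels' protocols) were counted per gene by the authors. The deposited counts are raw featureCounts 1.5.2 read counts per Ensembl release 87 gene on GRCm38 with strand setting 2, per the file headers. STAR 2.5.2b is named in the submitters' processing notes. Here edgeR 4.0.16 in R 4.3.3 filtered genes by expression (minimum count 10, total 15), scaled libraries by TMM and fitted all 12 libraries with robust quasi-likelihood tests and Benjamini-Hochberg adjustment over 15399 genes. limma-voom 3.58.1 and DESeq2 1.42.0 were alternatives. The scripts were tested on simulated data. TPM used the deposited gene lengths, and likeness used log2 of CPM plus 0.5.

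Named were the 9 genes, Lyl1 and Tal1, pathway genes past the threshold or at 10 TPM in a genotype mean, and the 2 likest genes of each of the 9. Also named were Gm16548, Fga, Fgb, Fgg, F11 and F2, chosen after their values were seen, and some cell type markers. Gm16588 was named for its overlap with F5 on the same strand. Members, lists and tests were chosen with earlier results of these data known. A count of 3 equals 0.103 to 0.123 CPM, and 49326 of 49671 identifiers matched a symbol. One gene of the pathway list is not reported here. The reported fit has no replicate block. Deviations of same-numbered libraries correlated at over 0.1 in all 3 pairs for Scl KO with wild type (0.116 to 0.411) and with double KO (0.182 to 0.523), and blocked values stand beside those results where they change a call. Some pairs of different numbers lay within these ranges, as Scl KO replicate 1 with wild-type replicate 2 (0.284) and double KO replicate 1 with Scl KO replicate 2 (0.304). These values therefore cannot show that the numbers pair the libraries.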

Additional observations from a re-analysis of the deposited data

Results flagged for a closer look

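For 3 of the 9 genes the interaction test over 12 libraries passed (edgeR, Benjamini-Hochberg adjusted), where 9.38% of all tested genes passed. Of all genes, 3.51% passed above 0 and 5.86% below. The test compares the effect of losing Lyl1 without Scl with its effect with Scl. F5 had an interaction of -2.01 on the log2 scale (adjusted p = 0.0133): losing Lyl1 changed it by -1.91 without Scl and by 0.10 with Scl. Pros1 had an interaction of -0.83 (adjusted p = 0.0240), from a change of -0.85 without Scl and -0.03 with Scl. This Pros1 call was lost in 6 of 21 alternatives. F3 had an interaction of 4.29 (adjusted p = 0.0413), from a change of 2.74 without Scl and -1.55 with Scl, at 90 counts over all 12 libraries. This F3 call was lost in 12 of 20 alternatives.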

How the results depend on the processing

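Up to 22 alternatives were run per value. Leaving out 1 library in turn, the number of the 9 genes past the threshold ran from 2 to 5 in Scl KO against wild type, 4 to 8 in double KO against wild type, 2 to 5 in double KO against Scl KO, 4 to 6 in double KO against Lyl1 KO and 1 to 3 in the interaction, and was 0 throughout in Lyl1 KO against wild type. Of all tested genes, in the same order, 388 to 1063, 3899 to 5528, 1645 to 3222, 3884 to 5630, 671 to 1925 and 5 to 41 passed. With only the libraries compared in the fit, the number in double KO against Scl KO was 2, beside 1742 of all genes.

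Log2 fold changes that turned sign were all outside the threshold. In Lyl1 KO against wild type, with 1 library left out, F5 ran from -0.0295 to 0.20, F13a1 from -0.10 to 0.20, Pros1 from -0.0712 to 0.0733, Thbd from -0.13 to 0.0148 and Serpine2 from -0.0618 to 0.13. In Scl KO against wild type, Tfpi ran from -0.33 to 0.10, Pros1 from -0.11 to 0.0494 and Plau from -0.43 to 0.10, and in the interaction Plau ran from -0.68 to 0.11. With a term for a library's sign on principal component 2, F10 was 0.19, Pros1 0.14, Thbd 0.0797 and Serpine2 -0.0143 in Lyl1 KO against wild type, and Plau was 0.11 in the interaction; the cause was not tested. That term, a term for Y-linked transcripts and scaling without platelet markers were chosen after the data were seen.

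With the replicate number as a block, 0 of the 9 genes and 16 of all genes passed when Lyl1 KO was set against wild type, 5 and 1226 for Scl KO against wild type, 8 and 5970 in double KO against wild type, 4 and 3722 in double KO against Scl KO, 6 and 6043 in double KO against Lyl1 KO, and 3 and 2100 in the interaction. Deviations of same-numbered libraries correlated at -0.085 to 0.523, over 0.1 in 12 of 18 pairs, against 9 of 36 pairs of different numbers, and a library matched its own number best in 19 of 36 cases. Not all pairs of Lyl1 KO with the other genotypes, or of double KO with wild type, were over 0.1. F13a1 passed under the block in double KO against wild type (adjusted p = 0.00202) and against Lyl1 KO (0.000711), Plau in double KO against wild type (0.0372) and F5 in Scl KO against wild type (0.0104).

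Over all genes, 103 passed by DESeq2 and 29 with only the libraries compared in Lyl1 KO against wild type (11 in the fit reported; 5 to 41 with 1 library left out). In Scl KO against wild type, 1329 passed by DESeq2, 1226 with the block and 1631 with the component term, against 774 (388 to 1063 with 1 library left out). In double KO against Scl KO, 1742 passed with only the libraries compared, against 2947 (1645 to 3222). In the interaction, 2262 passed by DESeq2 and 3199 with the component term, against 1444 (671 to 1925). Below about 20 counts per library, as for F3, counting error limits what can be told apart.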

Other observations

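Replicate 3 was the lowest library in 4 of 4 genotypes for F13a1 and F10, and in 3 of 4 for F5 and Thbd. For Plau it was the highest in 3 of 4 genotypes.

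Summed levels of 8 fibroblast markers were 18.7 to 47.0 CPM in double KO, 12.2 to 88.5 in Lyl1 KO, 30.4 to 347 in Scl KO and 146 to 154 in wild type. The 8 mast cell markers summed to 18.5 to 30.3 CPM in double KO and 21.6 to 59.7 CPM in wild type. Of 8 trophoblast markers, 5 were at 0 in all libraries.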
